A study of Drosophila melanogaster with 3 samples.

Results

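Sox14 binding was examined here at intronic sites near gene starts, called promoter-near intronic summits below. A summit is the base that the authors' peak caller placed at the top of a peak. A summit was a member when it lay inside the span of a protein-coding gene, outside every annotated exon, more than 1000 bp from every noncoding RNA gene start, and 501 to 5000 bp from the nearest transcription start site (TSS) of a protein-coding gene. Of the 9316 summits in the authors' optimal list, 2099 met the rule, which is 22.5%. Within that list the rule used only positions. The list itself held the strongest pooled peaks after the authors' filter for reproducibility, so signal and recovery in the replicates were limited by that choice. The lowest signal of a member was 89.83.

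The material was white prepupae of a transgenic Drosophila melanogaster line in which Sox14 carries GFP at its C terminus. Whole animals of both sexes were pooled, their age in hours is unlabelled, and the chromatin was precipitated with an antibody against GFP, per the description in the labels, whose antibody field names Sox14. There was 1 group with 3 biological replicates, each with 1 library, and every animal carried the fusion; whether untagged Sox14 was also present is unlabelled. Each value is an average over all tissues of the prepupa, and no library without the antibody or the fusion was analysed here. The relaxed lists, 1 per replicate and 1 for the pool of all, run to 30000 peaks each and include weak ones, and read depth is unknown. Positions are on genome build dm6 with Ensembl genes.

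Sox proteins bind DNA through a high mobility group (HMG) box, which contacts the minor groove of AT-rich sites and bends the DNA. Sox14 is induced by the steroid hormone ecdysone, and in Drosophila sensory neurons it is required for the pruning of dendrites during metamorphosis. Introns close to a gene start, above all the first intron, are known to hold many transcriptional enhancers and alternative promoters in flies. For comparison, 3810 optimal summits lay within 500 bp of a protein-coding TSS and are called promoter summits. A further 1403, called distal intronic summits, met the same intronic rule at more than 5000 bp.

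Sequences are shown for the strongest members and for strong members with a Sox site. Such a site was in 19.2% of all members and 17.8% of all optimal summits. The following 101 bp windows are centred on the summits of the 6 strongest members, printed 5′ to 3′ on the plus strand from the RefSeq genome of the same build. Capitals mark AACAAT or AACAAAG on either strand, and names are those of the nearest coding gene.
cbt, chr2L:481026-481126: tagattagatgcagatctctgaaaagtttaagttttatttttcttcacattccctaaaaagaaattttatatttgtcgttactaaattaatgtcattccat
CG11050, chr2L:6612666-6612766: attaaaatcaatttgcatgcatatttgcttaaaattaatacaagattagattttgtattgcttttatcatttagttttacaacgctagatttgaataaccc
Lk6, chr3R:11761012-11761112: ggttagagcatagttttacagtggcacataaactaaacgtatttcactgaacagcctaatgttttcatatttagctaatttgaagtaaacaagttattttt
CG4496, chr2L:7188573-7188673: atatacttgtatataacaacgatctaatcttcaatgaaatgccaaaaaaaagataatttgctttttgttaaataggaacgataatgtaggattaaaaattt
CG9663, chr2L:3302134-3302234: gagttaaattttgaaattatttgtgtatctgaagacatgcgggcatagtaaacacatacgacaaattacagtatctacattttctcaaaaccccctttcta
CG32772, chrX:4910326-4910426: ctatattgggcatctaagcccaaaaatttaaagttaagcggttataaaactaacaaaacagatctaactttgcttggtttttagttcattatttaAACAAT

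These windows were AT-rich, with a GC content of 22.8% to 32.7%, and 1 of the 6 held a Sox site, at its last bases. The next 6 windows belong to strong members that held the heptamer AACAAAG.
Reph, chr2L:3804706-3804806: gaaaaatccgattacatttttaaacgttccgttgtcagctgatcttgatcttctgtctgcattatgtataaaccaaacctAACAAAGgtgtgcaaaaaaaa
vri, chr2L:5295173-5295273: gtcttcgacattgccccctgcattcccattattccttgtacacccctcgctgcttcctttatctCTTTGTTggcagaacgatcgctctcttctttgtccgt
Akap200, chr2L:8416639-8416739: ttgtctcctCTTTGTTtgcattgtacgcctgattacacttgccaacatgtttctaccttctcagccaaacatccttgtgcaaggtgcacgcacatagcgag
Sirup, chr2L:8000667-8000767: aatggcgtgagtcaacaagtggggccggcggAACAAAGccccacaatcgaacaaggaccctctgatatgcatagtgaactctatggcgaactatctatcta
wake, chr3R:22667669-22667769: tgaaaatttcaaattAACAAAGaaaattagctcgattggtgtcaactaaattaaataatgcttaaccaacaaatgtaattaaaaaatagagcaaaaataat
BNIP3, chr3L:20518641-20518741: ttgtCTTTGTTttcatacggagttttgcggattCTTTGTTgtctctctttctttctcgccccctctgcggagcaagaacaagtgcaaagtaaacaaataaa

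Their GC content ranged from 21.8% at wake to 49.5% at vri and Sirup. BNIP3, which in mammals encodes a mitophagy receptor, had 2 copies of the heptamer, and its summit ranked 1594, 144 and 588 in replicates 1, 2 and 3. The wake summit ranked 388 and 424 in replicates 1 and 2, and replicate 3 had no summit within 100 bp. The Sirup site lies inside the gene Wwox.

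Signal is the authors' score for a peak and has its own scale in each list, so it ranks peaks within a list only. In the pooled list the members had a median signal of 167.0, with quartiles of 118.7 and 272.1 and a highest value of 3118. The other 7217 optimal summits had a median of 160.7, the promoter summits 167.9 and the distal intronic summits 153.3. Among the 100 strongest optimal summits 27 were members, and among the 1000 strongest 243 were. These 243 were 11.6% of the members, against 10.5% of the other optimal summits that ranked as high. By class, 12.6% of promoter summits and 7.48% of distal intronic summits did so.

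Recovery was measured as the share of summits with another summit within 100 bp among the 9316 strongest peaks of a replicate, called its top peaks. For members it was 80.8% in replicate 1, 82.1% in replicate 2 and 84.3% in replicate 3. For the other optimal summits it was 80.0%, 78.9% and 84.6% in the same order. The mean difference of 1.23 ± 1.80 percentage points (SD, n = 3) was smaller than its spread and had the opposite sign in replicate 3 (exact two-sided sign-flip permutation test, p = 0.5). With 3 replicates that test cannot give less than 0.25. All 3 replicates held 1284 members among their top peaks, which is 61.2% with a 95% Wilson interval of 59.1% to 63.2%, against a background of 58.6% over all optimal summits. The same share was 58.0% of promoter summits and 57.9% of distal intronic summits. Wilson intervals here cover the counting of summits or genes only.

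Within the replicates' own rankings, members matched to a replicate summit had a median signal percentile of 85.0 in replicate 1, 85.6 in replicate 2 and 84.7 in replicate 3. The other optimal summits had 84.6, 83.9 and 84.2. Members were higher in 3 of 3 replicates, by 0.86 ± 0.73 percentile points (SD, n = 3, p = 0.25 in the exact sign-flip permutation test, the smallest it can give). The groups' values did not overlap, but the gap was close in size to its own spread. The other optimal summits mix classes, and members were not above promoter summits in every replicate. The median rank of matched summits was 4515, 4310.5 and 4577.5 for members in replicates 1, 2 and 3. It was 4197.5, 4524 and 4298 for promoter summits and 5317.5, 4941 and 5359.5 for distal intronic summits, where a lower number is stronger.

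The sequence that meets the positional rule adds up to 20.59 Mb. Members lay in it at 102 per Mb, against 63.7 other optimal summits per Mb of the rest of the genome. Using each replicate's own top peaks, the density was 98.6, 104.0 and 98.9 per Mb at these positions and 64.3, 63.4 and 64.3 per Mb elsewhere. The difference of 36.5 ± 3.48 per Mb (SD, n = 3) was larger than the spread between replicates and had 1 sign in 3 of 3 (exact sign-flip permutation test, p = 0.25, the smallest it can give). Weaker peaks were also frequent here. Of the 7129 relaxed summits at these positions, 2099 were optimal, or 29.4% (28.4% to 30.5%), against a background of 31.1% over all relaxed summits. Per replicate, such positions made up 21.79%, 22.95% and 21.85% of the top peaks and 23.98%, 24.46% and 23.77% of the weaker peaks. The difference was -1.87 ± 0.35 percentage points (SD, n = 3), with the share among top peaks lower in 3 of 3 replicates (exact sign-flip permutation p = 0.25).

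Optimal summits thinned out with distance from the TSS, as did their share of the relaxed summits. There were 148.4 members per Mb at 501 to 1000 bp, 115.1 at 1001 to 1500 bp, 82.6 at 2501 to 3000 bp and 72.7 at 4501 to 5000 bp. In the replicates' top peaks the nearest bin held 145.0, 151.0 and 142.0 per Mb, and the farthest held 76.9, 81.1 and 76.2 per Mb. The difference was 67.8 ± 1.92 per Mb (SD, n = 3, exact sign-flip permutation p = 0.25). Intronic optimal summits outside the limits, under the same rule on exons and noncoding RNA genes, had 249.0 per Mb within 500 bp, 74.3 per Mb from 5 to 10 kb and 39.7 per Mb beyond. The optimal share of relaxed summits was 35.7% in the nearest bin and 23.6% in the farthest. The other relaxed summits changed less in density, from 267.7 per Mb in the nearest bin to 235.6 in the farthest. The members' median signal ranged between 150.1 and 172.2 over the bins with no order by distance. That median covers only summits above the signal cut of the optimal list, so it does not describe the strength of all peaks at these positions. The median member lay 1724 bp from its TSS, with quartiles of 980.5 and 2887 bp.

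**Figure D1:**
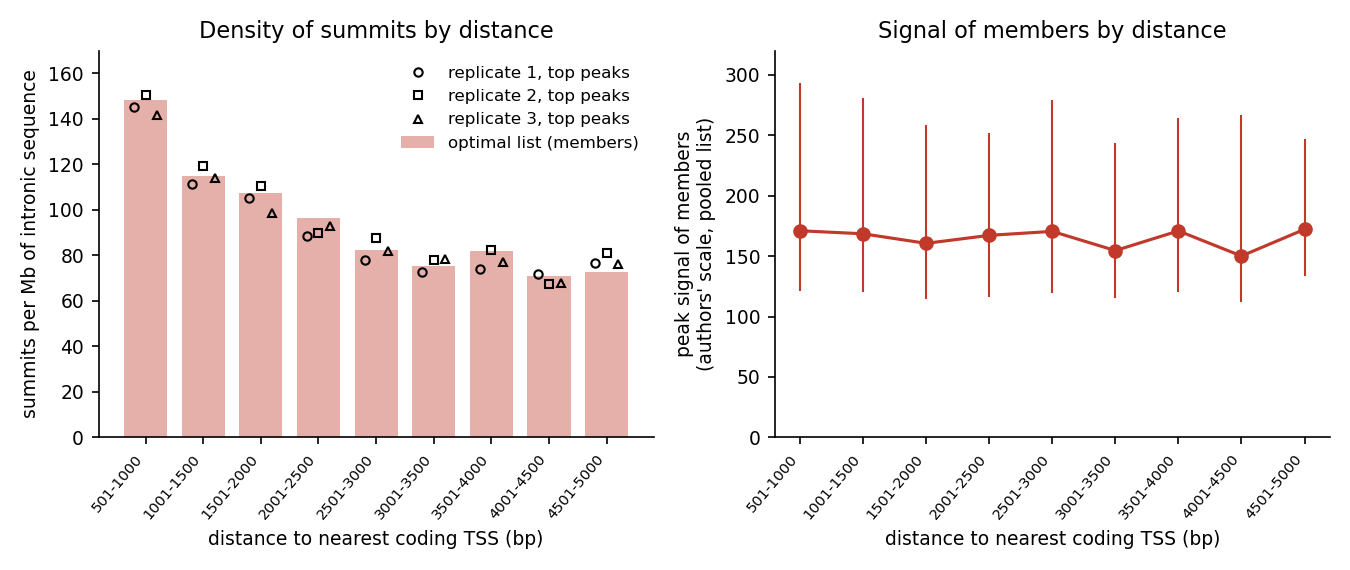
Left, density of summits in intronic sequence that meets the positional rule, in 500 bp bins of distance to the nearest coding TSS. Bars are members of the optimal list and symbols are the top peaks of each replicate, and both are highest at 501 to 1000 bp. Right, the members' median signal (points) with quartiles (lines), which stays between 150.1 and 172.2.

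Summits on either side of the limits had the following signals. Just inside the lower limit, summits 501 bp from the TSS of CG12075 and of stv had signals of 182 and 134. Just outside, summits at 499 bp from CG10383 and at 500 bp from Hsc70-4 had 165 and 338. Just inside the upper limit, summits at 4987 bp in tna and 4989 bp in CG46339 had 279 and 347. Just outside, summits at 5005 bp from Pdk and 5006 bp from Doa had 299 and 117.

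Most members lay in a first intron downstream of a start of their own gene. The nearest TSS belonged to the host gene and lay upstream of the summit for 1345 members, or 64.1%. For another 469, or 22.3%, it was a start of the host gene farther along the transcribed strand, which places the summit in an intron of a longer transcript and upstream of a shorter one. For the remaining 285, or 13.6%, it was a start of another gene. In all, 1640 members, or 78.1% (76.3% to 79.8%), lay in the first intron of at least 1 transcript. First introns made up 59.3% of the sequence that meets the rule, and they held 71.2% of the 5030 relaxed summits at the same positions outside the optimal list. In the replicates, 77.0%, 77.8% and 77.9% of the top peaks at these positions lay in a first intron, against 70.8%, 70.2% and 71.2% of the weaker peaks. The difference of 6.84 ± 0.76 percentage points (SD, n = 3) exceeded the spread between replicates, with 1 sign in 3 of 3 (exact sign-flip permutation p = 0.25). Members in a first intron lay at a median of 1567.5 bp and those in later introns at 2253 bp, and the part of distance in this share was not tested.

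The members lay on either side of starts about as often as the sequence itself. Their nearest TSS, of any gene, lay upstream of the summit for 68.6% of them, for 68.3% of the sequence that meets the rule and for 66.9% of the other relaxed summits. In the replicates it was so for 67.8%, 68.5% and 68.7% of the top peaks at these positions and 67.3%, 68.1% and 67.5% of the weaker ones, a difference of 0.71 ± 0.44 percentage points (SD, n = 3, exact sign-flip permutation p = 0.25). The median signal was 165.1 for members downstream of a start of their own gene, 174.0 for those upstream of one and 165.7 for those near a start of another gene. The introns were long, with a median of 6938 bp.

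Nearly as many members had a bound promoter beside them as did not. The nearest TSS had an optimal summit within 500 bp, called a promoter partner, for 986 members, or 47.0% (44.8% to 49.1%). The same held for 37.7% (36.4% to 39.1%) of the other relaxed summits at these positions. Counted within each replicate, 45.2%, 49.1% and 48.7% of the top peaks at these positions had a partner among the top peaks, against 33.8%, 39.8% and 38.4% of the weaker ones. The difference of 10.3 ± 1.06 percentage points (SD, n = 3) was beyond the spread between replicates (exact sign-flip permutation p = 0.25). Signals within a pair were nearly unrelated, among pairs whose summits both stood above the signal cut of the optimal list. Pairs with a weaker summit are not covered. The intronic summit was the stronger of the pair in 469 of 986 pairs, or 47.6%, and Spearman's correlation between the signals was 0.03 across pairs, some of which share a promoter. Members with a partner had a median signal of 167.2 and those without had 166.8.

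**Figure D2:**
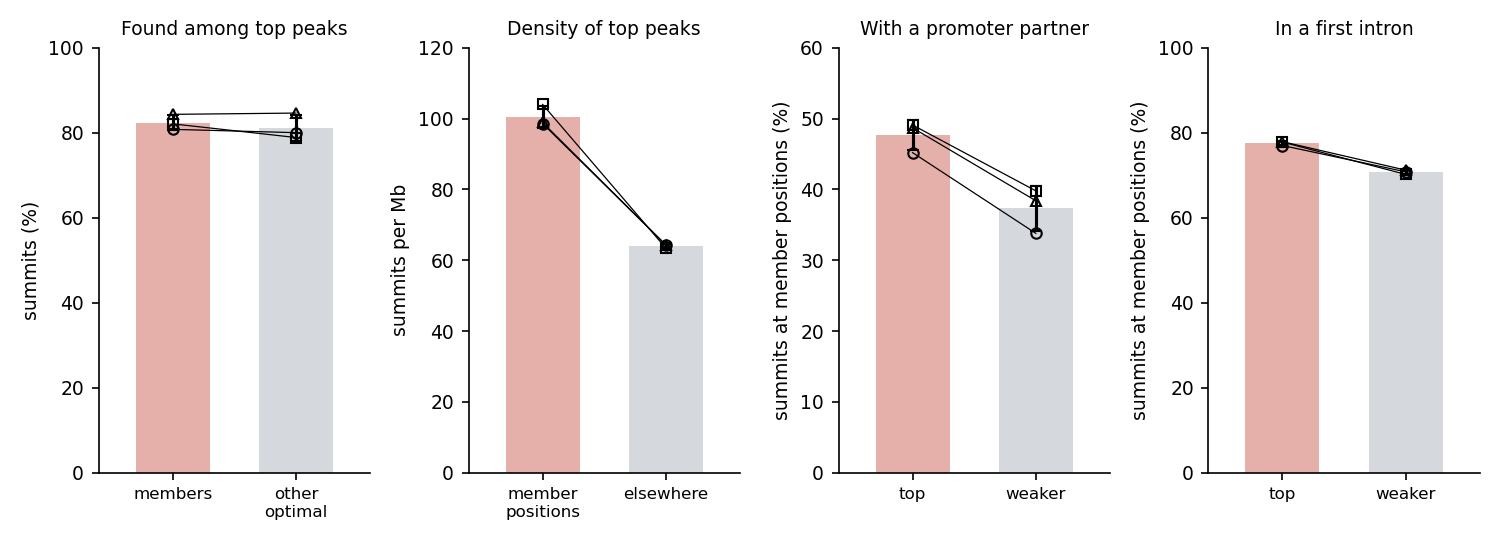
Values of the 3 replicates (circle, replicate 1; square, replicate 2; triangle, replicate 3), joined by lines, with bars for the mean and error bars for the SD. From left to right: recovery of members and of other optimal summits, density of top peaks at member positions and elsewhere, and the shares of top and weaker peaks at member positions with a promoter partner and in a first intron. The left panel's lines cross, and in the other panels every line runs down.

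The 20 strongest members, with pooled signals of 1271 to 3118, belonged to the top peaks of every replicate, and none ranked lower than 131 of 30000 in any. The pooled signal draws on the same 3 replicates, so high ranks in each are not independent of the choice. The strongest lay in the first intron of ush (FBgn0003963), which encodes a zinc finger cofactor of GATA factors, 1388 bp upstream of cbt, which encodes a zinc finger transcription factor. Its signals were 1070, 959 and 1034 in replicates 1, 2 and 3, and its ranks were 4, 4 and 2. The summit in CG11050 (FBgn0031836) ranked 11, 6 and 7. It lay in a second intron of 140 bp, short beside the median of 6938 bp.

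The summit in Lk6 (FBgn0017581), a kinase that phosphorylates the translation initiation factor eIF4E, ranked 14, 10 and 9. That in Trl (FBgn0013263), which encodes the GAGA factor, ranked 31, 38 and 41. A summit 531 bp upstream of a start of HmgZ, inside introns of both HmgZ and HmgD, ranked 38, 67 and 49, and these genes encode small HMG box proteins. The summit in pum, which encodes an RNA-binding translational repressor, ranked 64, 49 and 44. The summit in for, a cGMP-dependent protein kinase gene, ranked 84, 59 and 47. That in norpA, a phospholipase C gene known for phototransduction, ranked 65, 131 and 68, the widest range in absolute rank among the 20.

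Of these 20 summits, 17 lay in a first intron, 13 lay downstream and 7 upstream of the nearest TSS, and 7 had a promoter partner. AACAAT or AACAAAG was in 3 of the 20 windows, beside 19.2% of all members and 17.8% of all optimal summits. AACAAAG was in 0 of the 20, beside 7.96% of all members, so too few windows were at hand to show a difference. Their median GC content was 28.7%.

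**Figure D3:**
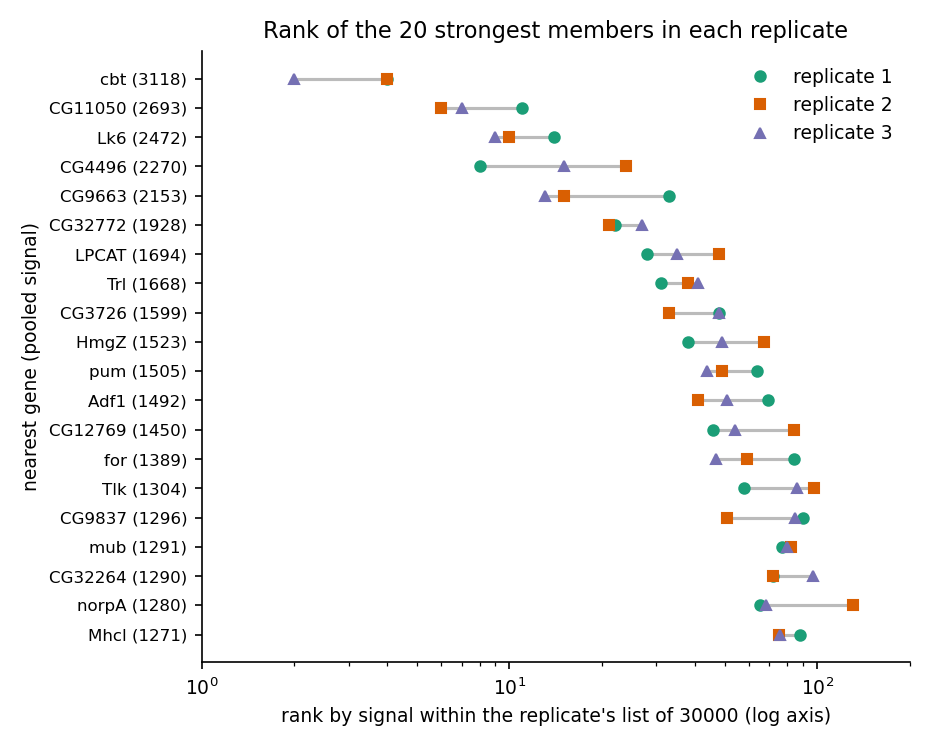
Rank of the 20 strongest members in each replicate's list of 30000 peaks, on a log axis where 1 is the strongest. Each row is named by the nearest coding gene, with the pooled signal in brackets, and no rank is lower than 131.

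The members were spread over 1145 host genes, with several in some. Such genes are 8.21% of the 13945 protein-coding genes on these arms, and 12.7% of the 8991 that contain any sequence meeting the rule. A single member was held by 645 genes, 2 by 254 genes and 3 or more by 246. The 70 genes with 5 or more held 464 members, or 22.1%. The distance to the closest other optimal summit had a median of 1374 bp for members and 1981 bp for the other optimal summits. Summits of 1 cluster are not independent: 38 members shared their peak interval with another optimal summit, and 258 lay within 300 bp of another member.

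The gene with most members was shn (FBgn0003396, chr2R:11159086-11217394), a zinc finger cofactor of the BMP-activated Smads, with 16. Their signals ranged from 140.5 to 497.3, and 14 reached the top peaks of each replicate. Its strongest summit had signals of 258, 103 and 143 in replicates 1, 2 and 3. Tlk (FBgn0283657, chrX:3720007-3789770), which encodes the Tousled-like kinase, had 15. They ranged from 90.7 to 1304, and 8 reached the top peaks of each replicate. CG1677 (FBgn0029941, chrX:7281089-7405797) had 14, but its introns enclose other genes. The nearest start was that of brk for 3 of them, the gene of a repressor of BMP targets, and that of unc-119 for 4. Of the 12 members in sbb, which encodes a zinc finger corepressor, all had their nearest start in another gene. Svil followed with 11, and ush, vri and atos had 10 each.

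Members occurred on every arm. Arm 2L held 349, 2R 397, 3L 427, 3R 469 and X 456, at 95.8 to 108 per Mb of sequence that meets the rule. On X they were 27.6% of the optimal summits, against 20.7% to 23.3% on the 4 large autosomal arms. Per Mb, X had 108 and 3L had 105. Chromosome 4 held 1 member, in Asator, a tau-tubulin kinase gene, at 5.11 per Mb. That summit had signals of 41.5 and 43.1 in replicates 1 and 3, and replicate 2 had no summit within 100 bp.

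Gene groups were described by how many of their genes held a member, and by members per 100 kb of sequence that meets the rule, since long introns hold more. The share of genes with a member was 1.16% where such sequence was under 1 kb, 22.8% from 1 to 5 kb, 46.2% from 5 to 20 kb and 71.2% above. Its part in the counts of genes was not tested. The density over all genes was 10.2 members per 100 kb. A gene counts as host when the summit lies in its span, even if the nearest start belongs to another.

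The ecdysone-responsive regulators had the highest share of genes with a member among the groups described. Of the 20 with such sequence 17 held a member, or 85.0% (64.0% to 94.8%), against the background of 12.7%, with 51 members at 22.6 per 100 kb. Their strongest were at vri, whose bZIP protein also acts in the circadian clock. The summit shown above ranked 501, 43 and 96 in replicates 1, 2 and 3, and a neighbour at chr2L:5293369 ranked 210, 97 and 105. The summit in Eip78C, a nuclear receptor gene, ranked 145, 253 and 110, and its nearest start is that of CG43218. The strongest summit in EcR, the gene of the ecdysone receptor, had a pooled signal of 435 and lay in intron 3 of a transcript. Those in Eip75B, Eip74EF and br, early genes of the ecdysone cascade, had 405, 402 and 281. The coactivator gene tai had 324, and Kr-h1, which acts downstream of juvenile hormone, had 273. The nearest starts of the EcR, br and Kr-h1 summits were those of CG14589, Mur2B and CG45075, in that order.

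Sox14 itself held 2 members in its first intron, both downstream of the start. The one 1179 bp from it had signals of 45.9, 57.7 and 55.4 and reached the top peaks of each replicate. The one at 913 bp had 75.6 and 26.2 in replicates 1 and 3, and replicate 2 had none there. Mical (FBgn0053208), an actin-oxidising enzyme gene required for pruning, held 1 member in its first intron, 3420 bp from the start. Its signals of 58.4, 103 and 50.1 gave ranks of 4377, 1785 and 5622.

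Of the neurite pruning genes, 7 of 16 held a member, at 21.7 per 100 kb. The strongest was in wit, a BMP type II receptor gene, with ranks of 98, 111 and 122, though its nearest start is that of CG32259. The next was in put, another type II receptor gene of the TGF-beta family, with 857, 638 and 779.

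Among TGF-beta and BMP genes, 9 of 17 held a member, or 52.9% (31.0% to 73.8%), with 31 members at 30.2 per 100 kb. Of the 31, shn held 16. The receptor genes wit, put and tkv had strongest signals of 1056, 492 and 466, and Dad, an inhibitory Smad, had 465. The nearest starts of these wit and tkv summits were those of CG32259 and Cyp4ac1.

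The Brahma and insulator genes had 5 of 14 genes with a member but 49.5 members per 100 kb, the highest density among the groups described, and psq held 9 of the 18. The autophagy genes had 5 of 17, at 31.1 per 100 kb, led by Atg5 with a pooled signal of 428 and the kinase gene Atg1 with 397. The nearest start of that Atg1 summit is that of CG42709. Circadian clock genes had 4 of 9, at 30.2 per 100 kb, and vri, which is also in the ecdysone group, held 10 of the 16. Wnt and Hedgehog genes had 7 of 15, at 18.5 per 100 kb. Matrix, protease and integrin genes had 7 of 16, at 12.0 per 100 kb, led by Sb, a transmembrane protease gene, with 294. Notch pathway genes had 4 of 12, at 12.9 per 100 kb. Their strongest was in neur, the gene of a ubiquitin ligase for Notch ligands, with ranks of 148, 66 and 120.

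Insulin and TOR genes had 4 of 15, at 13.7 per 100 kb, and Lk6 was their strongest. The other ecdysone-inducible genes had 2 of 5, at 12.5 per 100 kb. ImpL2, the gene of a secreted antagonist of insulin-like peptides, led them with ranks of 215, 91 and 98. The nearest start of that summit is that of CG46460. The ecdysteroid synthesis, transport and clearance genes had 2 of 13, at 10.5 per 100 kb: mld, a zinc finger gene needed for ecdysone synthesis, and Oatp74D, which encodes the ecdysone importer. The nearest start of the Oatp74D summits is that of edin. Apoptosis genes had 2 of 12, at 20.9 per 100 kb, and Sox family genes had 2 of 6, with 3 members.

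The groups of lowest density follow, and by share of genes all but the last were above the 12.7%. The imaginal disc transcription factors had 5 of 32, or 15.6% (6.86% to 31.8%), at 6.85 per 100 kb, and ush held 10 of the 15 members. The homeotic genes had 3 of 8, or 37.5%, at 6.82 per 100 kb, in lab, Antp and Abd-B. Muscle genes had 3 of 14, or 21.4%, at 9.02 per 100 kb. The neuron genes had 3 of 20, or 15.0%, at 1.88 per 100 kb over 159.4 kb of sequence that meets the rule. Those 3 were in Rbp9 and fne, which encode RNA-binding proteins, and in Syn, the gene of synapsin, where the nearest start is that of Timp. The cytoplasmic ribosomal protein genes had 0 of 21, whose such sequence came to 4.4 kb in all.

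**Figure D4:**
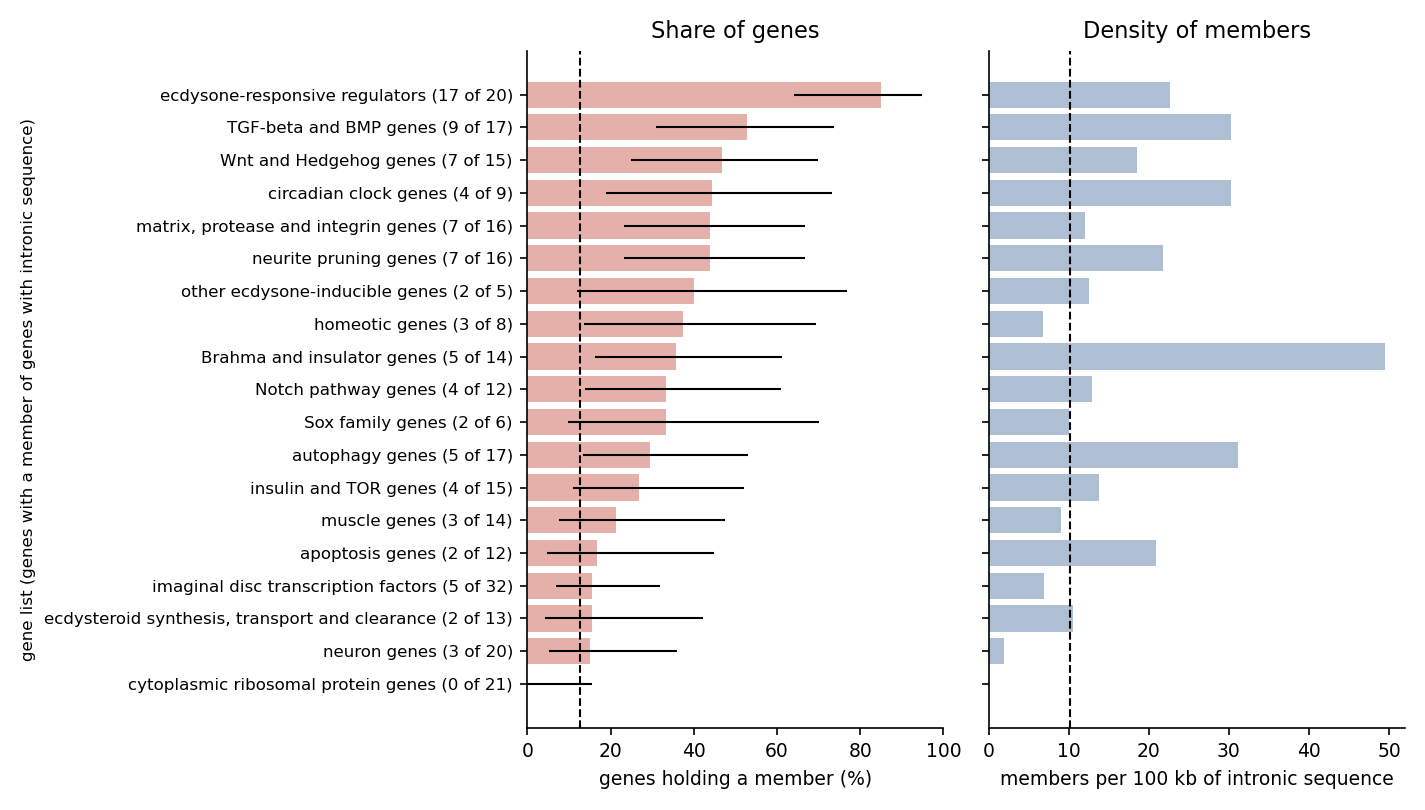
Left, percentage of genes in each group that hold a member, among genes with sequence that meets the positional rule, with 95% Wilson intervals and a dashed line at the 12.7% of all such genes. Right, members per 100 kb of that sequence, with a dashed line at 10.2 over all genes. The ecdysone-responsive regulators have the longest bar on the left, and the Brahma and insulator genes on the right.

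The sequence under the members was AT-rich at the summit itself. The median GC content of the 101 bp window was 33.7% at the summit and 40.6% in windows of the same length 1000 bp to the side, and 66.9% of members were lower at the summit. In the replicates' own summits at these positions the mean was 34.0%, 36.8% and 36.0% at the summit, against 41.0%, 41.4% and 41.1% at the side. The difference of -5.54 ± 1.26 percentage points (SD, n = 3) was wide beside the spread between replicates (exact sign-flip permutation p = 0.25). The dip was narrow. Mean GC was 35.4% at members' summits, 43.9% at 200 bp to its right on the plus strand and 44.1% at 300 bp, above the 41.1% at 1000 bp. Distal intronic summits had medians of 31.7% at the summit and 40.6% at the side, and promoter summits 38.6% and 45.5%.

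The Sox hexamer or heptamer, AACAAT or AACAAAG on either strand, was found in 403 member windows. In the replicates' own top peaks at these positions it was in 18.4%, 19.1% and 20.1% of summit windows and in 14.9%, 14.1% and 13.8% of the windows to the side. The summit share was higher in 3 of 3 replicates, by 4.93 ± 1.42 percentage points (SD, n = 3), which is larger than the spread (exact sign-flip permutation p = 0.25). The other top peaks had 16.6%, 18.0% and 17.7%, so the members' share was higher by 1.76 ± 0.69 percentage points (SD, n = 3, exact sign-flip permutation p = 0.25). With the top 5000 peaks of each replicate that difference turned round, to -0.36.

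Most of the gain came from the heptamer. AACAAAG was in 167 member windows, or 7.96% (6.87% to 9.19%), and in 3.38% (2.69% to 4.25%) of the windows to the side. It was in 6.30% of promoter summits against 2.76% to their side, and in 5.49% of distal intronic summits against 3.64%. In the replicates it was in 5.57%, 9.03% and 7.47% of the summit windows at member positions, and in 3.40%, 2.99% and 3.39% of those to the side. The difference was 4.10 ± 1.94 percentage points (SD, n = 3, exact sign-flip permutation p = 0.25), smallest in replicate 1. Against distal intronic top peaks, which had 4.03%, 6.17% and 6.24%, the members were higher by 1.88 ± 0.87 percentage points (SD, n = 3, exact sign-flip permutation p = 0.25). Promoter top peaks had 4.71%, 7.08% and 6.4%, and the members were higher by 1.29 ± 0.58 percentage points (SD, n = 3, exact sign-flip permutation p = 0.25). AACAAT alone was in 12.3% of member windows and 10.8% of those to the side.

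The GC content was lower at the summits, as given above, and the part of base composition in these shares was not tested. Other orders of the same letters were counted beside it. Among the 42 distinct words made of the letters of AACAAAG, counted with their complements, AACAAAG had the highest share at summits and the largest difference from the side, 4.57 percentage points. The differences of the other 41 ranged from -1.57 to 3.76 with a median of 0.333. The largest of them belonged to ACAAAGA, which overlaps AACAAAG by 6 letters. The nearest AACAAAG started within 24 bp of the summit for 99 members and 25 to 49 bp away for 86, and each further 25 bp to 199 bp held 39 to 64.

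The heptamer was found across the range of signal and position. With members ranked by signal and cut into 4 groups of like size, from the strongest to the weakest, it was in 6.67%, 8.40%, 9.33% and 7.43% of windows. The intervals of the 4 groups overlapped. Promoter summits cut in the same way had 7.76% in the strongest group and 4.51% in the weakest. Distal intronic summits had 4.84% and 4.27%. Beside promoter summits, the members' share was lower in the strongest group and higher in the weakest, but the intervals overlapped in both. They were 4.83% to 9.13% against 6.23% to 9.64% in the strongest group. In the weakest they were 5.48% to 9.99% against 3.37% to 6.02%. No replicate values were computed for these groups. Members with it had a median signal of 161.3 and those without it 167.6. It was in 8.05% of members in a first intron and 7.63% of those in a later one, and in 7.69% of those up to 1000 bp and 8.92% of those beyond 4000 bp.

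**Figure D5:**
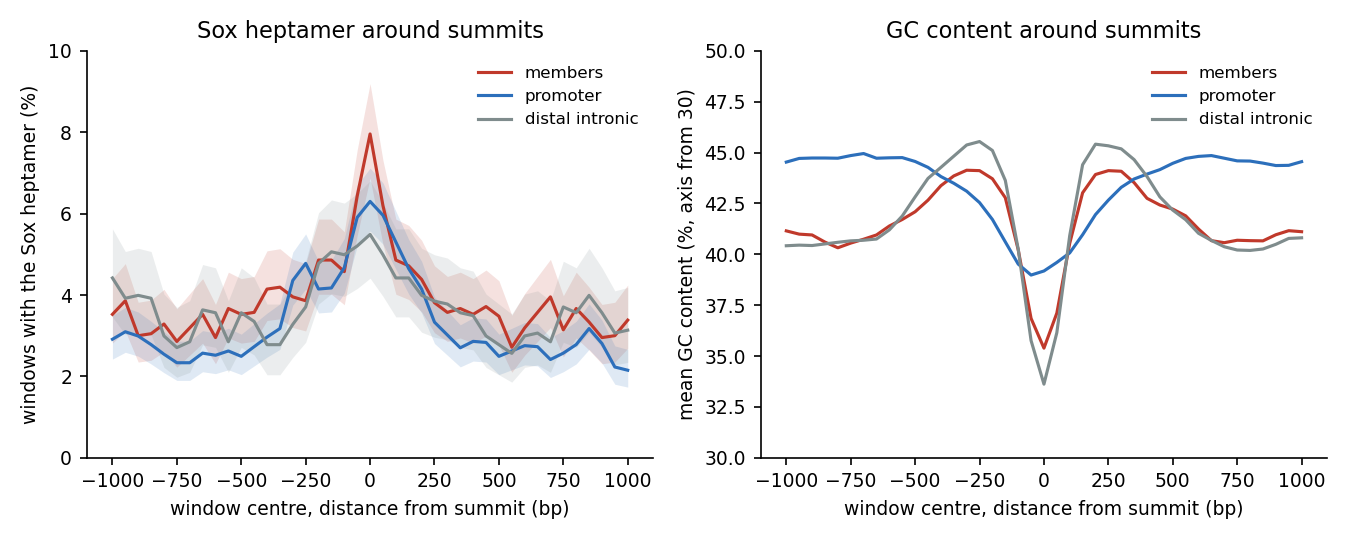
Left, percentage of 101 bp windows with AACAAAG on either strand by distance of the window from the summit, with 95% Wilson intervals as bands. Right, mean GC content of the same windows, on an axis that starts at 30%. Members peak at 7.96% at the summit, where their mean GC content is lowest at 35.4%.

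Other words were counted in the same way. TGATAA, the core of GATA factor sites, was in 10.4% (9.15% to 11.8%) of members and 6.72% of windows to the side. In the replicates it was in 9.95%, 9.82% and 10.2% of summit windows, against 7.34%, 7.11% and 8.01% to the side, a difference of 2.49 ± 0.29 percentage points (SD, n = 3, exact sign-flip permutation p = 0.25). Distal intronic summits had 10.7% and 6.56%, and promoter summits 7.61% and 7.32%. TATCGATA, the site of the promoter factor DREF, was in 3 members, or 0.143%, in 0.214% of distal intronic summits and in 3.91% of promoter summits. In the replicates it was in 0.296%, 0.0468% and 0.0491% of top peaks at member positions and in 4.22%, 2.70% and 4.07% of promoter top peaks, a difference of -3.54 ± 0.76 percentage points (SD, n = 3, exact sign-flip permutation p = 0.25).

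GAGAG, bound by the GAGA factor, was in 12.2% of members and 14.7% of windows to their side. AGGTCA, a recognition core of nuclear receptors, was in 2.29% of both. TGANTCA, the AP-1 site with N for any base, was in 3.48% and 2.53%, and CAGGTA, bound by Zelda, in 1.72% and 2.00%. For these words the intervals of the summit and the side overlapped. They did not overlap for CANNTG, the general E-box, in 36.2% (34.1% to 38.2%) of members and 42.2% (40.1% to 44.3%) of windows to the side, or for AAAAAA, in 26.4% (24.6% to 28.4%) and 21.2%. The Sox core ACAAT, which AACAAT contains, was in 30.5% (28.6% to 32.5%) and 24.4% (22.6% to 26.3%). No replicate values were computed for these words except ACAAT. The windows to the side show the share of these words in nearby sequence of the same length, which was not limited to introns. What exons, promoters or other peaks in them add to the differences was not tested. A match is a string of letters, not a measured site.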

How the data were processed

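Chromatin from 3 biological replicates of Sox14-GFP prepupae was sonicated to fragments of 200 to 800 bp and sequenced, per the labels. Peaks of each replicate and of the pooled replicates were called against a control file and filtered by the irreproducible discovery rate (IDR), per the deposited text descriptions. Which aligner, caller and thresholds were used is not stated in those texts. The authors deposited for each peak a signal, used here as a score for ranking within a list, a −log10 q value and a summit offset. Lists on build dm3 were not used here.

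Summits were placed on Ensembl release 115 genes and RefSeq sequence of the same Release 6 assembly. The 9316 peaks of highest signal in each replicate were its top peaks, and a match was a summit at most 100 bp away. Shares carry 95% Wilson intervals, and replicate differences were tested by the exact two-sided sign-flip permutation test over 3 replicates, whose smallest p is 0.25. Summits are not replicates. The windows to the side lay 1000 bp away, alternating by rank, and could fall in exons, promoters or other peaks. The tests of density, partners, first introns, GC content, TGATAA and TATCGATA by replicate, and of the heptamer alone, were added after seeing the data and were not adjusted for their number.

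The members, the 20 gene lists and the 15 motifs were chosen with earlier results of these data known, and 1 list is left out of the text and figures. Named genes were hosts of the 20 strongest members, the 5 genes with most members, the 3 strongest members of each list, the strongest 5 per arm, Sox14, Mical and Cul1 where they held a member, and members nearest the distance limits, and not all are described. A few others (further ecdysone regulators, brk, unc-119, atos, and hosts named for a count) were chosen after their values were seen. The intervals leave out sequencing error, since depth is unknown. Position classes, matching, motif search and the test were checked on simulated data. Python 3.11.15, pandas 2.3.3, numpy 2.4.6 and scipy 1.17.1 were used.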

Additional observations from a re-analysis of the deposited data

How the results depend on the processing

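The 9 results were recomputed under 55 alternative settings, and 49 were counted as unchanged. For the replicate differences only the sign was checked, while counts, shares and the median distance had to stay within set limits. The Sox difference between summit and side, 4.93 percentage points in the main setting, ranged from 1.55 with AACAAT alone to 6.34 with 100 bp to each side. The difference in Sox motif share between members and other top peaks had the opposite sign with the top 5000 peaks of each replicate, at -0.36 percentage points. The number of members was 1088 among optimal peaks above the median signal and 1284 among the top peaks of all 3 replicates, as fewer peaks entered. The first intron share was 74.8% when members began at 1000 bp, and the cause was not tested. The promoter partner share was 35.1% with a window of 250 bp, since the window defines the partner. It was 70.7% with one of 1000 bp, where the 546 members at 501 to 1000 bp counted as their own partner. That value is therefore not a share of members with a bound promoter. Leaving out each replicate in turn reversed no mean difference, although recovery ranged from 0.24 to 1.99 percentage points. AACAAAG alone, AACAAT alone and ignoring exons of transposable elements, which gave 2100 members, were chosen after seeing the data. Each test used differences taken within a replicate, and with 3 replicates the sign-flip test cannot go below 0.25. The unknown read depth limits every share.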
